A study of Mus musculus with 6 samples.

Results

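Aldo-keto reductases are cytosolic enzymes that use NADPH or NADH to reduce aldehydes and ketones to alcohols. In the gut they act on aldehydes from food, on breakdown products of oxidised lipids, on retinaldehyde, on sugars and on steroids. The 9 genes described here (Akr1b8, Akr1b7, Akr1b3, Akr1c12, Akr1c13, Akr1c14, Akr1c19, Akr1a1 and Akr7a5) were taken by symbol from 47643 genes in the deposited count table. All 9 were found there, and all 9 were among the 12720 genes that passed the filter on low counts. The family was chosen by a measured value, the rise of Akr1b8 among genes of xenobiotic metabolism in the same comparison that is described below. The fold changes of its members are therefore a description, and no p-value is given for them.

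Messenger RNA was sequenced from the intestine of male C57BL/6 mice aged 7 to 8 weeks. All mice were injected with tamoxifen and ate a diet with 60% fat for 2 weeks. The 3 control mice are labelled Mycfl/fl, and the 3 others, called knockouts here, MycΔIE, ERT2, read here as loss of Myc from intestinal epithelial cells once tamoxifen activates a recombinase. Myc encodes a transcription factor of cell growth. The labels name neither the promoter that drives the recombinase nor the segment of the intestine, and they leave unstated if control mice have a recombinase too, so its activity and the loss of Myc cannot be told apart.

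Library totals ranged from 9956938 to 11328693 expected counts. Myc had 59 to 70 counts in the controls and 36, 47 and 63 in knockout libraries 1 to 3, so its level does not check the label of the third. Between the groups Myc was not called lower (log2 fold change -0.41 ± 0.22, edgeR adjusted p = 0.318). The extraction protocol names liver, but the enterocyte genes Fabp6 and Vil1 stood at 11004 and 4158 CPM (counts scaled to the TMM-corrected library size) in the controls and the hepatocyte gene Alb at 2.61 CPM. The pancreatic acinar gene Cela1 went from 3.40 ± 0.108 to 7.29 ± 0.607 CPM, with Cpa1, Pnlip and Amy2b at 0 counts, and both tested blood genes (Hba-a1 and Hbb-bs) fell, with sums of 15.1 to 18.3 and 7.84 to 10.2 CPM. Of the 3 tested hepatocyte markers 1 fell (Alb, to 0.582 ± 0.433 CPM; sums of all 8 of 157 to 200 and 194 to 246 CPM, most of it Cps1). None of 6 muscle or stroma markers (45.7 to 108 and 43.6 to 61.9 CPM), 6 leukocyte markers (2668 to 4278 and 3364 to 4213 CPM) or the 1 tested adrenal marker (sums of 0.951 to 1.79 and 1.21 to 1.38 CPM) was called. Of all tested genes, 4.22% were called higher and 3.73% lower. The summed level of 9 enterocyte markers ranged from 31773 to 36859 CPM in controls and from 40726 to 48536 CPM in knockouts. Of the 9, 2 rose, Fabp2 from 4759 to 8859 CPM and Apoa1 from 9503 to 13280 CPM. The other 7 were not called, among them Fabp6 (11004 and 10559 CPM), Vil1 (4158 and 4214 CPM) and Apoa4 (2025 and 3385 CPM). The part of these differences in the values of the reductases was not tested. In bulk tissue, fewer cells of a type and less RNA per cell cannot be told apart.

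The members fall into sequence branches, and the results turn on 2 sets of close relatives. Akr1b8, a relative of human AKR1B10, and Akr1b7, first described as a protein of the vas deferens, lie on chromosome 6 with Akr1b3, the aldose reductase gene. Their coding sequences are 85.0% identical, and each is 71.5% and 72.4% identical to that of Akr1b3. Akr1c12 and Akr1c13, of the hydroxysteroid dehydrogenase branch, are 96.2% identical and lie on chromosome 13 with Akr1c14 and Akr1c19. The first 60 coding bases of these relatives (GENCODE M21) are shown because their likeness decides how well reads can be assigned to each gene. Capitals mark bases that differ from the first sequence of the set.
Akr1b8: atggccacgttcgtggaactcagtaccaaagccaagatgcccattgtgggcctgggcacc
Akr1b7: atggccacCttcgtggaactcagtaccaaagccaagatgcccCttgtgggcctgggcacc
Akr1c12: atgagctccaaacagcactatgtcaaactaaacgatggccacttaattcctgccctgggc
Akr1c13: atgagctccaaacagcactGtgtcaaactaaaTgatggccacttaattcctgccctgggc
Akr1c19: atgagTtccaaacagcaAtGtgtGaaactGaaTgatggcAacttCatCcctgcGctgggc

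In this stretch Akr1b7 differs from Akr1b8 at 2 bases, Akr1c13 from Akr1c12 at 2 and Akr1c19 from Akr1c12 at 10. Along the whole transcript the sets part. Of the 50-base windows of Akr1b8, 3.21% occur in transcripts of another gene, and 2.52% of those of Akr1b7. For Akr1c12 and Akr1c13 the share is 28.6% each, all of it with each other, and 11.5% each at 100 bases, where Akr1b8 and Akr1b7 share none. The deposited counts carry the same mark. Akr1b8 and Akr1b7 had whole counts in every library, whereas Akr1c12 had 623.85 and Akr1c13 713.15 expected counts in control library 1, which add up to 1337. The sum of the pair was whole, to 2 decimals, in all 6 libraries. The separate values of Akr1c12 and Akr1c13 are thus estimates of a shared pool of reads and are uncertain. Akr1b3 shares 59.9% of its 50-base windows with 4 processed pseudogenes, which held at most 4.16 counts each in any library. Akr1c14, Akr1c19, Akr1a1 and Akr7a5 share no 50-base window with another gene.

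Opposite changes were seen in the Akr1b branch. Akr1b8 was 5.22-fold higher in the knockout mice, and Akr1b7, its neighbour, was 1.63-fold lower. Of the 9 members, 3 were called higher and 1 lower at an adjusted p under 0.05, where 4.22% and 3.73% of all tested genes were called higher and lower. Nothing is read from these shares, since the comparison chose the family. The median log2 fold change was 0.21 over the members and 0.00 over all tested genes. Groups did not overlap for 4 members with higher and 2 with lower values in the knockout mice, against 14.0% and 13.7% of all tested genes.

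**Figure D1:**
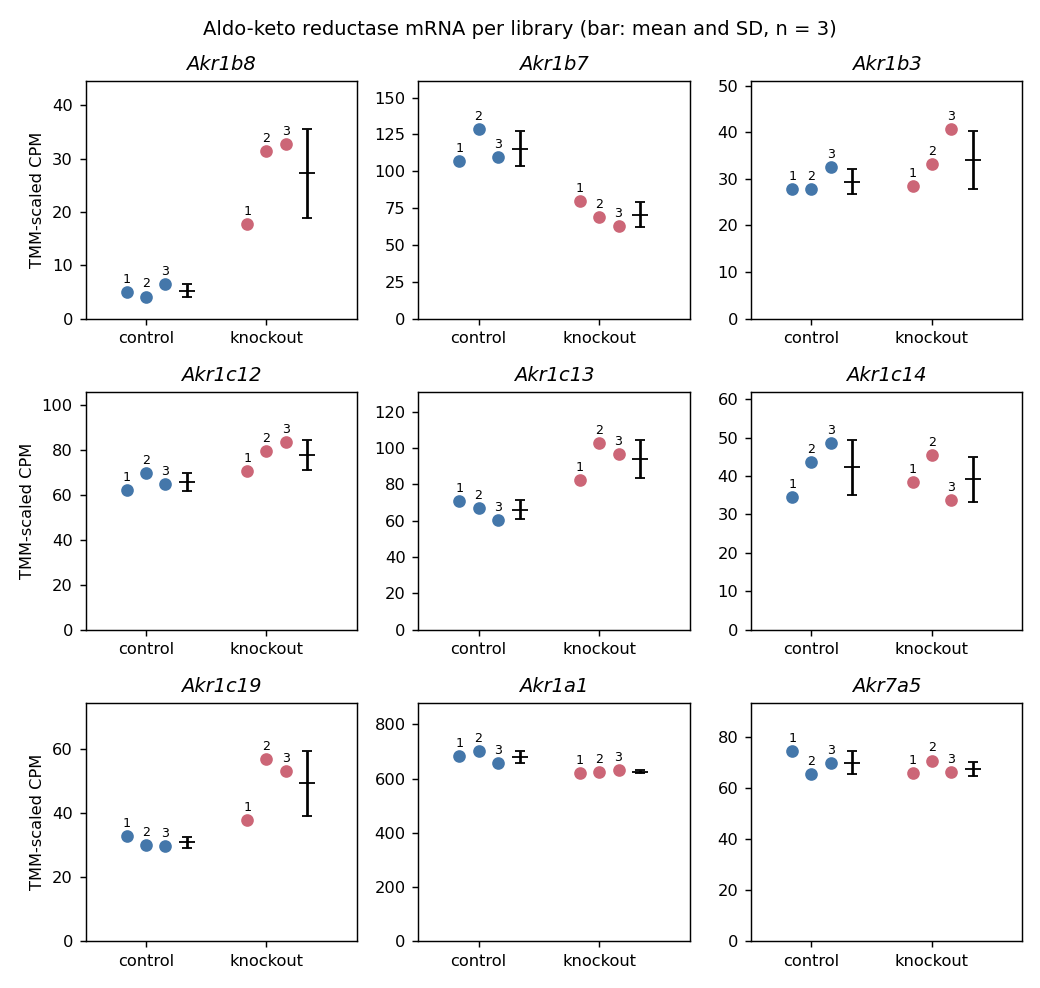
TMM-scaled CPM (y axis, from 0) of the 9 genes in each library (points, numbered by replicate) of the control and knockout groups, with the mean and SD (bars, n = 3). Akr1b8 lies at 4.15 to 6.54 CPM in controls and 17.7 to 32.8 CPM in knockouts, and Akr1b7 at 107 to 129 and 63.0 to 80.0 CPM.

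Akr1b8 (ENSMUSG00000029762.6, chromosome 6, 34354119 to 34368463, plus strand, GRCm38) reduces aliphatic and aromatic aldehydes and retinaldehyde. It had 51, 48 and 64 counts across controls 1 to 3 and 193, 338 and 356 across knockouts 1 to 3. Scaled, these were 5.07, 4.15 and 6.54 CPM against 17.7, 31.4 and 32.8 CPM. The lowest knockout library lay above the highest control, and knockout library 1 stood well below the other two. The group means were 5.25 ± 1.20 and 27.3 ± 8.38 CPM (SD, n = 3 each), a log2 fold change of 2.38 ± 0.26 (SE). The call held in every setting tried except the sum with Akr1b7, with log2 fold changes of 2.22 to 2.62 when 1 library was left out. These settings refit the libraries that chose Akr1b8, so they show only how its value depends on the processing.

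Akr1b7 (ENSMUSG00000052131.7, chromosome 6, 34412334 to 34423142, plus strand) reduces aldehydes released from lipids and steroids. It stood at 107, 129 and 110 CPM across controls 1 to 3 and 80.0, 68.7 and 63.0 CPM across knockouts 1 to 3. Every knockout library lay below every control. The means were 115 ± 12.1 and 70.6 ± 8.63 CPM, and Akr1b7 fell by 0.71 ± 0.11 (SE) on the log2 scale. The ratio of Akr1b7 to Akr1b8 counts within a library, which no scaling between libraries can change, was 21.1, 31.1 and 16.8 in the controls and 4.53, 2.19 and 1.92 in the knockout mice. Akr1b8 made up 4.42 ± 1.26% of the sum of the pair in the controls and 27.9 ± 8.62% in the knockout mice. The sum itself was 121 ± 11.3 and 97.9 ± 2.14 CPM, with a log2 fold change of -0.30 ± 0.08 that was not called. The sum was lower in every knockout than in every control.

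**Figure D2:**
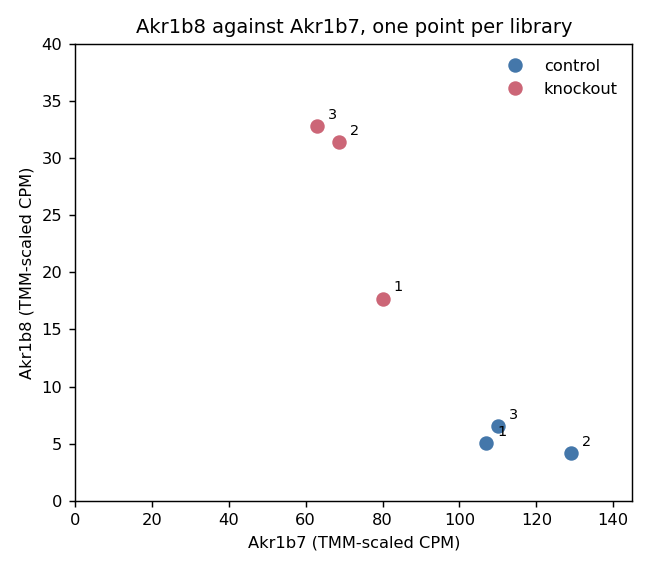
Akr1b8 (y axis) against Akr1b7 (x axis), both in TMM-scaled CPM, with 1 numbered point per library. The controls lie at the lower right, with 107 to 129 CPM of Akr1b7, and the knockout libraries at the upper left, with 17.7 to 32.8 CPM of Akr1b8.

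Akr1b3 (ENSMUSG00000001642.18, chromosome 6, 34302434 to 34317478, minus strand) converts glucose to sorbitol. It stood at 27.9, 27.9 and 32.5 CPM across controls 1 to 3 and 28.5, 33.1 and 40.8 CPM across knockouts 1 to 3. The groups overlapped, and the log2 fold change of 0.21 ± 0.13 was not called, with 0.06 to 0.33 when 1 library was left out. Akr1b10, a relative that lies between Akr1b8 and Akr1b7 on the chromosome, had 12 to 26 counts in the controls and 16 to 27 in the knockout libraries (log2 fold change 0.37 ± 0.35, not called). The opposite changes of Akr1b8 and Akr1b7 were thus separated by a gene with few counts and overlapping groups.

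The genes that flank the Akr1b cluster gave no common direction. Exoc4, an exocyst subunit gene, rose from 17.4 ± 0.427 to 28.1 ± 3.73 CPM (log2 fold change 0.69 ± 0.11, edgeR adjusted p = 0.00578). Slc35b4 (0.07 ± 0.13, adjusted p = 0.819), Bpgm (0.13 ± 0.07, adjusted p = 0.311) and Cald1 (-0.49 ± 0.39, adjusted p = 0.512) did not pass. Slc35b4 turned sign on dropping control 1 or knockout 1, and Cald1 on dropping control 2.

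In the Akr1c branch, 2 of the 4 members were called higher, where 4.22% of all tested genes were. Nothing is read from this share, since the comparison chose the family. Akr1c19 (ENSMUSG00000071551.12, chromosome 13, 4228700 to 4252843, plus strand) stood at 32.8, 29.9 and 29.5 CPM across controls 1 to 3 and 37.6, 56.9 and 52.9 CPM across knockouts 1 to 3. All knockout libraries were above the controls, with library 1 nearest to them. The means were 30.7 ± 1.79 and 49.1 ± 10.2 CPM (log2 fold change 0.68 ± 0.14, 1.60-fold). Dropping control 2, control 3, knockout 2 or knockout 3 ended the call, at log2 fold changes of 0.55 to 0.65.

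Akr1c13 (ENSMUSG00000021213.11, chromosome 13, 4191150 to 4205596, plus strand) stood at 70.9, 67.0 and 60.4 CPM across controls 1 to 3 and 82.6, 103 and 96.9 CPM across knockouts 1 to 3. Its log2 fold change was 0.51 ± 0.10 (1.42-fold), and dropping control 2, control 3 or knockout 2 ended the call. Akr1c12 (ENSMUSG00000021211.3, chromosome 13, 4268176 to 4279433, minus strand) stood at 62.0, 69.8 and 65.0 CPM against 70.5, 79.5 and 83.6 CPM. Its groups did not overlap, but the log2 fold change of 0.25 ± 0.09 was not called. Because reads are split between these copies, their sum, which that split cannot change, is given too. It was 133, 137 and 125 CPM across controls 1 to 3 and 153, 182 and 180 CPM across knockouts 1 to 3. With all libraries and TMM scaling the sum was called higher, with a log2 fold change of 0.38 ± 0.09. It was not refitted with other settings or with a library left out. The ratio of Akr1c13 to Akr1c12 was 1.01 ± 0.115 in the controls and 1.21 ± 0.0745 in the knockout mice.

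Akr1c14 (ENSMUSG00000033715.14, chromosome 13, 4049011 to 4090688, plus strand), a hydroxysteroid dehydrogenase that acts on dihydrotestosterone, stood at 34.5, 43.6 and 48.7 CPM across controls 1 to 3 and 38.4, 45.4 and 33.8 CPM across knockouts 1 to 3. The groups overlapped (log2 fold change -0.11 ± 0.14, not called), and the sign turned without control library 3. Within the cluster, Akr1c18, Akr1c20 and Akr1c21 had 0 counts in every library, which allows up to 0.306 CPM in the library where 3 counts weigh most. Akr1c6 had 1 count in a single library. Elsewhere in the family, Akr1d1 had at most 1 count in a library, Kcnab3 at most 2, Kcnab1 at most 6 and Akr1cl at most 7, and Kcnab2, a potassium channel subunit gene, was tested and not called (-0.25 ± 0.24, adjusted p = 0.596). Of the 8 genes of the cluster, 4 thus passed the filter. Net1 (-0.06 ± 0.08, adjusted p = 0.726), Tubal3 (0.03 ± 0.09, adjusted p = 0.878) and Klf6 (0.02 ± 0.10, adjusted p = 0.923), which flank the cluster, did not pass in edgeR, nor did Akr1e1 (0.13 ± 0.13, adjusted p = 0.625), a relative that lies just beyond it. The signs of Tubal3 and Klf6 turned with upper-quartile scaling.

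**Figure D3:**
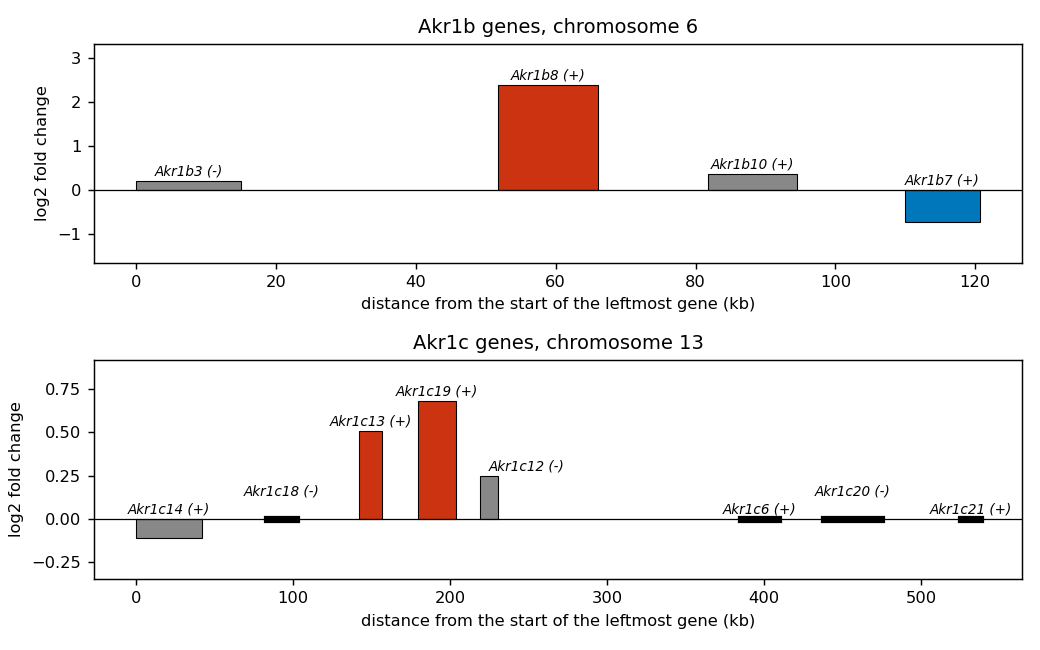
Log2 fold change of knockout over control (y axis) for the genes of both clusters, drawn at their distance in kb from the start of the leftmost gene (x axis), with the strand in brackets. Red bars were called higher, the blue bar lower and grey bars neither, and thick black lines are genes that were not tested. Akr1b8 at 2.38 and Akr1b7 at -0.71 lie in the same cluster.

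The 2 members outside these clusters were not called. Akr1a1 (ENSMUSG00000028692.14, chromosome 4, 116636510 to 116651680, minus strand), a general aldehyde reductase that mice also need to make ascorbate, stood at 682, 701 and 656 CPM across controls 1 to 3 and 620, 623 and 633 CPM across knockouts 1 to 3. Every knockout library lay below every control, but the log2 fold change of -0.12 ± 0.07 was not called. Akr7a5 (ENSMUSG00000028743.7, chromosome 4, 139310744 to 139318426, plus strand), a reductase of aflatoxin dialdehyde and succinic semialdehyde, stood at 74.6, 65.5 and 69.9 CPM against 65.9, 70.8 and 66.2 CPM. Its groups overlapped, with a log2 fold change of -0.05 ± 0.08 and a 95% interval of -0.21 to 0.11.

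**Figure D4:**
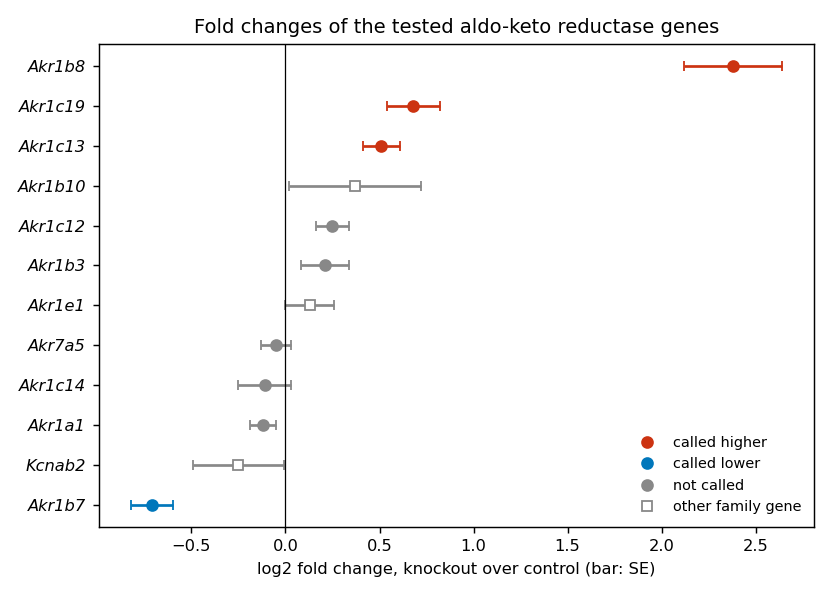
Log2 fold change of knockout over control (x axis; bars are SE) for the 9 members (circles) and the 3 other family genes that were tested (open squares), in order of size. Red marks genes called higher, blue lower and grey neither; Akr1b8 at 2.38 lies apart from the rest, which run from -0.71 to 0.68.

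Per kilobase of merged exons, Akr1a1 was the most abundant member in the controls, at 247 ± 8.26 CPM per kb. Akr1b7 followed at 90.0 ± 9.46, then Akr1c12 at 52.0 ± 3.10, Akr1c13 at 46.1 ± 3.70 and Akr7a5 at 39.0 ± 2.54 CPM per kb. Akr1c14 (13.0 ± 2.23), Akr1c19 (5.22 ± 0.304), Akr1b3 (3.51 ± 0.314) and Akr1b8 (3.50 ± 0.804) were the lowest. With this length, neither Akr1b3 and Akr1b8 nor Akr1c12 and Akr1c13 differed beyond their spread. For Akr1b3 and Akr1b8 that depends on the length, since the undivided control levels were 29.4 ± 2.63 and 5.25 ± 1.20 CPM. With the longest transcript they were 5.86 and 3.87 CPM per kb. In the knockout mice Akr1b8 stood at 18.2 ± 5.59 CPM per kb, above Akr1c14 (12.1 ± 1.81), Akr1c19 (8.34 ± 1.73) and Akr1b3 (4.07 ± 0.738). Before division by length Akr1b8 (27.3 CPM) lay below Akr1b3 (34.1), Akr1c14 (39.2) and Akr1c19 (49.1 CPM). Its place above them thus rests on the lengths used, 1499 merged bases for Akr1b8, 3239 for Akr1c14, 5892 for Akr1c19 and 8384 for Akr1b3. Akr1b7, at 55.1 ± 6.73 CPM per kb, came below Akr1c13 (65.6 ± 7.26) and Akr1c12 (61.7 ± 5.33), and the SDs of neighbours in this order overlapped, as did those of Akr1b8 and Akr1c14. With the length of the longest transcript, the levels in the controls were 54.4 for Akr7a5, 52.4 for Akr1c13, 52.0 for Akr1c12, 5.86 for Akr1b3 and 5.27 CPM per kb for Akr1c19, so the order within these groups depends on the gene model. The sum of the 9 members was 1105 ± 30.8 CPM in controls and 1085 ± 38.6 CPM in knockouts. Akr1a1 made up 61.5 ± 0.668% of this sum in the controls and 57.7 ± 1.76% in the knockout mice.

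The members also differed in how far replicates spread. In the controls the coefficient of variation ran from 3.34% for Akr1a1 to 22.9% for Akr1b8, and in the knockout mice from 1.08% for Akr1a1 to 30.7% for Akr1b8. The medians over 8284 tested genes whose log2 CPM averaged 3 or more were 7.45% and 8.27%. Akr1c19 had 5.82% in the controls and 20.7% in the knockout mice. Of the knockout libraries, library 1 was the lowest for 7 of the 9 members, and library 3 for Akr1b7 and Akr1c14. For Akr1a1 (620 against 623 and 633 CPM) and Akr7a5 (65.9 against 70.8 and 66.2 CPM) library 1 was lowest only by little. How often it was the lowest over all tested genes was not counted, so nothing about the family is read from this. Library 1 also had the fewest Myc counts, and its part in these values was not tested.

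Promoter sequences were found for 8 of the 9 members in RefSeq (GRCm38.p6), all but Akr1b3. The stretches below run from 157 to 8 bases before the RefSeq start site and are shown because Akr1b8 and Akr1b7 changed in opposite directions. GENCODE starts Akr1b8 at 34354119 and Akr1b7 at 34412334, so the last bases of both stretches lie inside the GENCODE genes. Capitals mark GC boxes (GGGCGG on either strand).
Akr1b8, chr6:34353989-34354138, plus strand: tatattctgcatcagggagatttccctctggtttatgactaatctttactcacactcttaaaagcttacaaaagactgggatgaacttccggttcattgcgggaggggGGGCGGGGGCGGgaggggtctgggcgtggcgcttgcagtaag
Akr1b7, chr6:34412205-34412354, plus strand: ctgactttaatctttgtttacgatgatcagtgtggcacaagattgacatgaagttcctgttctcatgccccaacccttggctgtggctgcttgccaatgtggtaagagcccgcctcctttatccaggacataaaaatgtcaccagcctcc

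Akr1b8 had 2 adjacent GC boxes, which start 49 and 43 bases before the start site, and Akr1b7 had none in its window of 300 bases. Akr7a5, which was not called, had 2 as well. Of 32851 promoter windows of that length, 35.7% held a GC box. The best local alignment of the windows of Akr1b8 and Akr1b7 covered 60 columns with 46 identical bases, from 30 bases before the start site of Akr1b8 and 82 before that of Akr1b7. The annotated start sites of this pair are therefore offset against each other.

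The promoters of Akr1c12 and Akr1c13 are shown over the same stretch because the reads of these genes are shared and their values stood higher together. Here too the last bases lie inside the GENCODE genes, which start at 4279433 for Akr1c12 (minus strand) and 4191150 for Akr1c13. Capitals mark runs of at least 8 aligned identical bases.
Akr1c12, chr13:4279407-4279556, minus strand: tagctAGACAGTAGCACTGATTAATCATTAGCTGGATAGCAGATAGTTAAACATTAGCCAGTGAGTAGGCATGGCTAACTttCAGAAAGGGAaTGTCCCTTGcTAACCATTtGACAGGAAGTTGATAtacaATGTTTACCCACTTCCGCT
Akr1c13, chr13:4191030-4191179, plus strand: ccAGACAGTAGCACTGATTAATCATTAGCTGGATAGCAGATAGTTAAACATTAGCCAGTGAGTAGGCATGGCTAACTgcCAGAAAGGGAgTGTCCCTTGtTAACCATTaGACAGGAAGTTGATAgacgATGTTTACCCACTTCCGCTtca

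Over the windows of 300 bases, Akr1c12 and Akr1c13 aligned in 297 columns with 284 identical bases (95.6%). Akr1c19 aligned with Akr1c13 in 127 columns at 70.1%. The core of the antioxidant response element (TGACNNNGC, either strand), which the factor Nrf2 binds, was found in 12.4% of all windows. Among the members it was found in Akr1c19 alone, where GCTTAGTCA starts 8 bases into the RefSeq transcript. The windows of Akr1c19 (4233490 to 4233789) and Akr1c14 (4059341 to 4059640) lie inside the GENCODE genes, which start at 4228700 and 4049011. The sequence before those GENCODE starts was not searched. The E-box CACGTG, which Myc binds with its partner Max, was found in 7.15% of all windows and in no RefSeq window of the 8 members. No match says only that these letters are not in this window.

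Genes with related functions were counted in the same comparison, in which 4.22% of all tested genes were called higher and 3.73% lower. Their lists were chosen with earlier results of these data known, so the counts are a description. Of 26 tested genes of other reductases and dehydrogenases of carbonyl compounds, retinoids, steroids and prostaglandins, 5 rose and 4 fell (median 0.02). They belong to the short-chain family except Srd5a1, Srd5a3, Ptgr1 and Ptgr2, none of which was called. Hsd17b6, a hydroxysteroid dehydrogenase, went from 3.47 ± 0.889 to 11.4 ± 3.33 CPM (log2 fold change 1.71 ± 0.27, edgeR adjusted p = 0.00481). Dhrs11 (-0.51 ± 0.07, adjusted p = 0.00334), the retinol dehydrogenase gene Rdh11 (-0.63 ± 0.11, adjusted p = 0.00803) and Hsd17b2, which inactivates sex steroids (-0.41 ± 0.08, adjusted p = 0.0172), fell. The abundant Hsd17b11 (0.24 ± 0.10, adjusted p = 0.213) and Hsd17b4 (0.02 ± 0.12, adjusted p = 0.957) did not pass. The list had 2 risers when control 1 or control 3 was dropped, 1 when control 2 or knockout 2 was and 3 when knockout 3 was, and 2 fallers when control 1, control 2 or knockout 3 was. Hsd17b2 missed the threshold on dropping control 1, control 2, knockout 2 or knockout 3 (adjusted p = 0.0501 to 0.0739). The sign of Hsd17b4 turned with upper-quartile scaling.

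Of 18 tested genes of the alcohol and aldehyde dehydrogenase families, some of which oxidise what aldo-keto reductases reduce or make, 2 rose and 2 fell (median -0.12). Aldh4a1, a mitochondrial enzyme of proline breakdown, went from 59.6 ± 13.9 to 143 ± 18.5 CPM (1.26 ± 0.16, edgeR adjusted p = 0.00161), and Aldh3a2, which oxidises fatty aldehydes, rose (0.44 ± 0.09, adjusted p = 0.0176). Aldh1b1 (-0.49 ± 0.08, adjusted p = 0.00441) and Aldh1a7 (-0.78 ± 0.15, adjusted p = 0.0141) fell. Aldh9a1 (-0.07 ± 0.09, adjusted p = 0.719) and Aldh1l1 (-0.18 ± 0.08, adjusted p = 0.241) did not pass. Aldh3a2 missed the threshold on dropping any control or knockout 2 (adjusted p = 0.0513 to 0.0961), and Aldh1a7 on dropping control 2 or control 3 (0.0586 and 0.0539). The list had 1 riser when control 2 or knockout 2 was dropped, 1 faller when control 2 or control 3 was, and 4 fallers when knockout 1 was.

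In the polyol pathway, aldose reductase makes sorbitol and sorbitol dehydrogenase turns it into fructose. Sord, the gene of that second enzyme, rose from 282 ± 34.5 to 537 ± 65.7 CPM (log2 fold change 0.93 ± 0.12, edgeR adjusted p = 0.00169), while the aldose reductase gene Akr1b3 was not called. The glucose and fructose transporter gene Slc2a2 was the other riser among 9 tested genes of polyol and fructose handling (3.56 ± 0.24, adjusted p = 0.000129). None of the 9 fell. Tkfc, which encodes a kinase of triose sugars, did not pass (0.01 ± 0.09, adjusted p = 0.957) and turned sign with upper-quartile scaling.

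Aldo-keto reductases draw on NADPH. Of 18 tested genes listed for the supply of NADPH or its precursors and for linked steps, 1 rose and 4 fell (median -0.09). Me1, the cytosolic malic enzyme, was the riser (0.98 ± 0.20, edgeR adjusted p = 0.0151), and is named after its value was seen. Dropping control 2, control 3 or knockout 2 ended its call. The folate enzyme gene Mthfd1 (-1.27 ± 0.11, adjusted p = 0.000440) and the mitochondrial genes Idh2 (-0.74 ± 0.09, adjusted p = 0.00156), Nadk2 (-0.72 ± 0.12, adjusted p = 0.00599) and Me2 (-0.57 ± 0.11, adjusted p = 0.0133) fell. Of the pentose phosphate pathway, Taldo1 (0.27 ± 0.09, adjusted p = 0.122) and Tkt (-0.08 ± 0.07, adjusted p = 0.551), which make no NADPH themselves, did not pass. Nor did its NADPH-making enzyme genes G6pdx (0.09 ± 0.10, adjusted p = 0.682) and Pgd (0.06 ± 0.08, adjusted p = 0.724), named after their values were seen.

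Several aldo-keto reductases are known targets of Nrf2, the factor that induces antioxidant genes. Of 33 tested Nrf2 targets and regulators, 9 rose and 1 fell (median 0.24), where 4.22% and 3.73% of all tested genes did. The list holds none of the 9 members. Nothing is read from these shares, since the list was chosen with earlier results of these data known. The risers with the lowest p were genes of conjugation and hydrolysis of reactive compounds. Gsta3, a glutathione transferase, went from 1.06 ± 0.173 to 5.20 ± 0.865 CPM (2.29 ± 0.27, edgeR adjusted p = 0.00149), and Ephx1, an epoxide hydrolase, from 4.30 ± 2.56 to 20.2 ± 5.60 CPM (2.20 ± 0.33, adjusted p = 0.00404). Gstm1 (0.97 ± 0.13, adjusted p = 0.00245) and Gsta4 (1.50 ± 0.24, adjusted p = 0.00528) rose as well. The ferritin genes Ftl1 (0.21 ± 0.08, adjusted p = 0.133) and Fth1 (-0.30 ± 0.08, adjusted p = 0.0515) did not pass. Fth1 was lower in every knockout library, and adjusted p-values of 0.0299 with upper-quartile scaling, 0.00198 with DESeq2, 0.0360 with limma voom and 0.0377 with no filter on low counts passed the threshold. Ftl1 passed as higher with DESeq2 (log2 fold change 0.22, adjusted p = 0.0331). The faller was Mgst1, a microsomal glutathione transferase named after its value was seen (-0.42 ± 0.08, adjusted p = 0.0105). Nqo1, a gene widely used as a readout of Nrf2, is named after its value was seen and stood at 19.7 ± 2.25 and 22.4 ± 3.34 CPM (0.19, adjusted p = 0.446).

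The genes whose pattern over the 6 libraries was nearest to that of Akr1b8 were Fgf15, Ccnd2, Plb1 and Apol9b. The measure was the root mean square difference of centred log2 CPM, which was 0.287, 0.304, 0.322 and 0.336 among 8268 genes compared. Each gene was centred on its mean over all 6 libraries, so the measure picks genes with a like difference between the groups as well as a like order of libraries. A shared fold change or order is therefore no separate result. Fgf15, the hormone gene of the ileum, stood at 143, 76.5 and 133 CPM across controls 1 to 3 and 306, 588 and 464 CPM across knockouts 1 to 3. Control library 2 and knockout library 1 were the lowest of their groups, as for Akr1b8. The same 2 libraries were lowest for the cyclin gene Ccnd2 and for Plb1, an intestinal phospholipase gene, which stood at 28.8, 27.0 and 50.6 CPM against 169, 324 and 214 CPM. Apol9b differed in this, with 22.0, 13.7 and 20.2 CPM against 75.9, 68.9 and 128 CPM, so that knockout library 2 was the lowest of its group.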

How the data were processed

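Per the submitters' processing notes, reads were handled with cutadapt, STAR, Picard and RSEM on the mouse build mm10, with versions and annotation not given in the sources used here. Deposited values are RSEM expected counts per gene, which the authors did not scale between libraries. Genes were matched by Ensembl identifier to GENCODE M21 (GRCm38), 99.1% of 47643. Counts were rounded, and genes that failed filterByExpr at a count of 10 and a total of 15 were dropped. After TMM scaling, genes were compared between knockout and control by the quasi-likelihood F-test of edgeR 4.0.16 in R 4.3.3. Benjamini-Hochberg adjustment covered the 12720 genes tested, and genes under 0.05 were called. The SE is the absolute log2 fold change over the root of F. A count of 3 corresponds to 0.259 to 0.306 CPM, and such floors cover counting error only. Whether the mice came from separate litters is unstated, and p-values measure the spread between these libraries.

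The members and lists were chosen with earlier results of these data known. Named genes are the 9 members, other family genes with a count, up to 4 called genes with the lowest p and the 2 most abundant uncalled genes of each list of related functions, the 2 nearest tested genes on either side of both clusters, and the 4 genes most like Akr1b8 (log2 CPM with a prior count of 2). A result that this rule would name is not reported here. Of the marker lists, the genes that bear on the tissue were named. The GC box was added after the sequences were seen. The procedure was tested on simulated data. Alternatives comprised scaling (RLE, upper quartile), tools (DESeq2 1.42.0, limma 3.58.1 voom), low-count filters (none, or a CPM of at least 1 in 3 libraries), a replicate block, omission of each library, summed paralogues and another gene length. Sequences were aligned with Biopython 1.88.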

Additional observations from a re-analysis of the deposited data

How the results depend on the processing

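Akr1b8 was called higher in all alternatives except the sum with Akr1b7 (-0.30), which is another quantity, and Akr1b7 was called lower in all but that sum. All alternatives reuse libraries that chose Akr1b8. Each other scaling, tool and filter, and the block, gave 3 members higher and 1 lower. Leaving out 1 library gave 1 to 3 members higher and 1 lower, and over all genes 229 to 503 higher and 233 to 447 lower, fewest without control library 2. These runs tested fewer libraries. In these runs Akr1c14 ran from -0.23 to 0.0039. With upper-quartile scaling 449 genes were higher and 591 lower, and log2 fold changes that were not called turned sign for Hsd17b4 (-0.02), Tkfc (-0.03), Tubal3 (-0.01) and Klf6 (-0.02). Risers among the other reductases and dehydrogenases numbered 2 with upper-quartile scaling and 3 with DESeq2, fallers among the alcohol and aldehyde dehydrogenases 4 with upper-quartile scaling or no filter, and fallers among the Nrf2 targets 2 with upper-quartile scaling, DESeq2, limma voom or no filter. With no filter, 691 genes were higher and 582 lower. When 1 library was left out, the ranges that crossed 0 were -0.14 to 0.09 for Hsd17b4, -0.05 to 0.10 for Tkfc, -0.01 to 0.24 for Akr1e1, -0.01 to 0.17 for Slc35b4, -0.78 to 0.0054 for Cald1, -0.01 to 0.11 for Tubal3 and -0.08 to 0.07 for Klf6.

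Deviations from the group means correlated weakly between same-numbered libraries (0.0261, 0.0524 and 0.0189), and the labels give the numbers no meaning, so they were not taken as pairs. With the replicate number as a block, 552 genes were higher and 428 lower, risers among the other reductases and dehydrogenases numbered 3, and the log2 fold change of Akr1b8 was 2.36. Each of the 6 libraries correlated best with the library of its own number in the other group. This counts each pair from both sides, and centring on the group means ties the values of a group together. With correlations this low it is at most a weak hint from the data, and the design gives none. At 48 to 64 counts in the controls, Akr1b8 is the member whose control level depth limits most.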
